A study of Mus musculus with 3 samples.

Results

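The 10 genes described here encode the enzymes that make melanin and the proteins that build and equip the melanosome, the organelle of pigment cells in which melanin forms. They are Tyr, Tyrp1, Dct, Pmel, Gpnmb, Mlana, Oca2, Slc45a2, Slc24a5 and Gpr143. These genes were chosen by name for their known function, with earlier results of these data known. They were found by their symbols among the 17285 rows of the deposited table. All 10 had a row and all 10 had reads in every library. The cells were B16, a mouse melanoma line, that stably carried an empty expression vector, and the labels name them Mock. All 3 samples, Mock replicates 1, 2 and 3, share this line, vector and state, no agent or time is given, and there is no second group. The labels do not say whether the line is 1 clone or a pool, which vector it carries, or whether the replicates are separate cultures. Every p-value therefore speaks for these 3 libraries alone, and the spread between them may be technical.

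Melanin is made from tyrosine. Tyrosinase (Tyr) carries out the first and rate-limiting oxidation, dopachrome tautomerase (Dct) converts dopachrome to its carboxylated indole, and Tyrp1 acts further along the eumelanin branch and stabilises tyrosinase. Pmel is cleaved into fragments that form the fibrils on which melanin is laid down, and Mlana, the melanoma antigen MART-1, takes part in Pmel maturation. Oca2, Slc45a2 and Slc24a5 are membrane transport proteins that set the ionic conditions and pH in which tyrosinase works, and Gpr143 is a G protein-coupled receptor inside pigment cells. Loss of several of these genes causes albinism or paler coats in mice.

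The libraries held 9328087 to 9456501 counts after rounding, and between 13192 and 13437 genes had at least 1 count. Levels are given as CPM (counts scaled to library size, after adjustment with TMM factors of 0.998 to 1.003). A single read was worth 0.106 CPM. Levels of different genes are compared as RPKM, which is CPM divided by kilobases of annotated exon, since a longer transcript yields more reads. Intervals cover counting error only, since no molecular identifiers are named in the labels and several reads may come from 1 molecule. The 10 genes lie on 9 chromosomes, and 2 of them, Tyr and Oca2, share chromosome 7.

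Together the 10 genes took 2.40%, 2.52% and 2.46% of all counts in replicates 1, 2 and 3, with exact binomial 95% intervals of 2.39 to 2.41%, 2.51 to 2.53% and 2.45 to 2.47%. They make up 0.0579% of the rows. The intervals of the 3 libraries did not overlap, so the share differed between libraries by more than counting error. Tyrp1 alone supplied 50.2% ± 0.592 of the members' counts (SD, n = 3), and Tyrp1, Gpnmb and Dct together 85.0% ± 0.116. The set's median level was 995 CPM, beside a median of 23.6 CPM over the 14408 genes tested. All 10 exceeded 1 CPM (F test on edgeR's quasi-likelihood fit, Benjamini-Hochberg adjusted), as did 74.3% of all genes tested. No member was among the 20.2% of genes below 1 CPM. A count of members above 1 CPM is thus not far from the table's own share, and the members stand out by rank instead. Of the 14408 genes, Tyrp1 was rank 1, Gpnmb 5, Dct 13, Pmel 47, Slc45a2 63, Mlana 91 and Slc24a5 580 by CPM. Gpr143 was rank 3440 and Oca2 3566, both in the upper part of the table. Tyr was rank 9587, in the lower part.

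**Figure D1:**
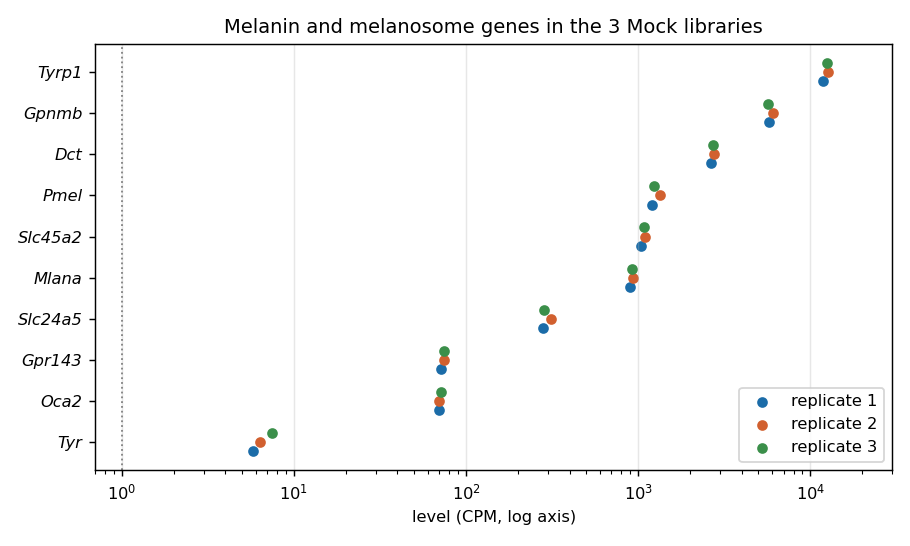
Level of each gene in CPM (horizontal log axis) in the 3 Mock libraries, 1 point per library, with the dotted line at 1 CPM. The points of a gene lie close together, and the genes run from Tyr at 5.77 to 7.42 CPM to Tyrp1 at 11881 to 12620.1 CPM.

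**Figure D2:**
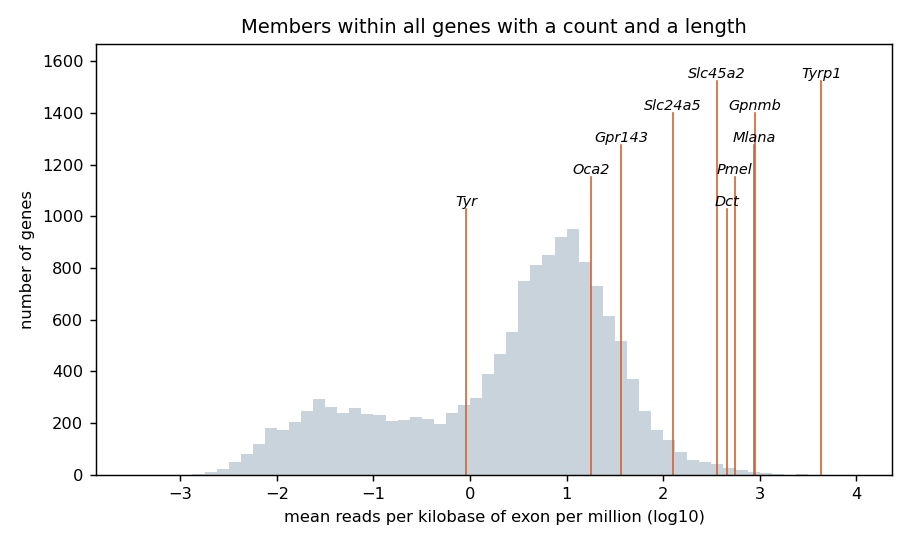
Distribution of mean RPKM (log10) over all genes with a count and an annotated length, with the 10 genes as vertical lines. From Slc24a5 upward 7 members sit in the right tail, Oca2 and Gpr143 lie right of the main peak, and Tyr lies to its left.

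The 3 enzymes of the tyrosinase family lay far apart, from rank 1 for Tyrp1 to rank 9587 for Tyr. Tyrp1 (ENSMUSG00000005994.14, chromosome 4, 80834123 to 80851719, plus strand, GRCm38) had 11881, 12620.1 and 12511 CPM in replicates 1, 2 and 3, a mean of 12337 ± 399 CPM (SD, n = 3). Dct (ENSMUSG00000022129.4, chromosome 14, 118012790 to 118052244, minus strand) had 2664, 2760 and 2715 CPM, a mean of 2713 ± 47.7 CPM. Replicate 1 was the lowest library and replicate 2 the highest for both enzymes. Tyr (ENSMUSG00000004651.6, chromosome 7, 87424771 to 87493512, minus strand) had 5.77, 6.36 and 7.42 CPM, a mean of 6.52 ± 0.839 CPM from 184 reads in all. Its exact Poisson 95% interval over the summed reads was 5.61 to 7.53 CPM. The spread between its libraries was not shown to exceed counting error (Poisson deviance adjusted p = 0.724). The highest Tyr library did not come near the lowest library of any other member, which was Oca2 at 69.8 CPM. Tyr was above 1 CPM (edgeR adjusted p = 5.99e-08, higher in 3 of 3 libraries), by a test whose spread is pooled over genes. At 10 CPM Tyr was below the line instead, at a log2 distance of -0.62. In bulk RNA, a few cells with much Tyr and many cells with little cannot be told apart.

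Per kilobase of exon, Tyrp1 stood at 4363 ± 141 RPKM, Dct at 460.2 ± 8.09 RPKM and Tyr at 0.917 ± 0.118 RPKM. Within each library Tyrp1 exceeded Dct per kilobase by 9.29-fold, 9.53-fold and 9.61-fold in replicates 1, 2 and 3. Dct exceeded Tyr by 557-fold, 523-fold and 441-fold, and counting error alone gives Tyr a coefficient of variation of 12.8%. The 3 coding sequences are of similar length, at 533 residues for Tyr, 537 for Tyrp1 and 517 for Dct. Their translated products shared 43.2% of aligned residues between Tyr and Tyrp1, 43.4% between Tyr and Dct and 49.2% between Tyrp1 and Dct. At the level of reads the family is distinct. Of words of 31 bases in the GENCODE M21 transcripts, Tyr and Tyrp1 shared 0, Tyrp1 and Dct 0, and Tyr and Dct 16. Tyr shared 145 of its 7107 words (2.04%) with other genes of any kind, and its deposited values were fractional at 54.44, 60.5 and 70.32, so its level is uncertain to that extent. How many reads from Tyr were assigned elsewhere was not tested.

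The promoter windows of the 3 enzymes are shown because they carry the same 9-base word. The pigment cell factor Mitf is known to bind E-box words of the form CATGTG, and the extended form in pigment gene promoters is known as the M-box. RefSeq windows of 300 bases (250 before to 50 after the annotated start, GRCm38.p6) were held for 6 of the 10 genes: Tyr, Tyrp1, Dct, Gpnmb, Oca2 and Slc24a5. The stretches below read 5′ to 3′ on the gene's strand, with CATGTG, or its reverse complement, in capitals.

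Tyrp1, chr4:80834155-80834184, plus strand: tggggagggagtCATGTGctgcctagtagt
Tyr, chr7:87493516-87493545, minus strand: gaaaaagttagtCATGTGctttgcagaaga
Dct, chr14:118052379-118052408, minus strand: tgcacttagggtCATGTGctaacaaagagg
Slc24a5, chr2:125068102-125068126, plus strand: aaggagactgctCACATGattcagc
Oca2, chr7:56239561-56239590, plus strand: ttgagcttgctaCACATGgctggaattttc

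The word CATGTG begins 46 bases before the RefSeq start of Tyrp1, 21 before that of Tyr and 150 before that of Dct, each on the gene's own strand. The Tyrp1 stretch lies inside the GENCODE bounds of the gene, which begin at 80834123, so its place depends on the start used. Dct has another CATGTG on the opposite strand, 232 bases before the start. In Slc24a5 and Oca2 the word lies on the opposite strand, 13 and 186 bases before the start. Searched on both strands, it was present in 5 of these 6 windows and in 14.2% of all 32851 windows, and Gpnmb was the window without it. The canonical E-box CACGTG was in 0 of the 6 and in 7.15% of all windows. The longer word TCATGTGCT, which contains CATGTG and was picked after reading the windows, was in those of Tyr, Tyrp1 and Dct and in 0.408% of all windows. These matches are descriptions of letters and were not tested for binding. Tyr and Tyrp1 both have the longer word close to the RefSeq start, and the level of Tyr per kilobase was 4758-fold lower. Whether the word bears on their levels was not tested.

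Set against Tyr in the same library, all 9 other members were higher per kilobase by limma on log2 ratios with Benjamini-Hochberg adjustment, where 68.8% of the 14098 other genes with a length were also above Tyr. The log2 ratio was 12.21 ± 0.15 for Tyrp1 (SD, n = 3, as for the other ratios), 9.93 ± 0.20 for Gpnmb and 9.89 ± 0.17 for Mlana. Pmel stood at 9.22 ± 0.19, Dct at 8.97 ± 0.17 and Slc45a2 at 8.61 ± 0.15. The smallest gaps were those of Slc24a5 at 7.09 ± 0.20, Gpr143 at 5.32 ± 0.15 and Oca2 at 4.28 ± 0.16. Each ratio was positive in 3 of 3 libraries. The ratios share the error of the Tyr reads and so are not independent of each other. Gene length matters here, because GENCODE gives Tyr 7108 bases of merged exon for 1599 coding bases. Per kilobase of coding sequence, an alternative added after the data were seen, Tyrp1 exceeded Tyr by 1879-fold and Oca2 by 6.93-fold, compared with 4758-fold and 19.4-fold per kilobase of merged exon. In plain reads the same folds were 1893 and 10.8. All 9 members were above Tyr under each of these treatments.

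**Figure D3:**
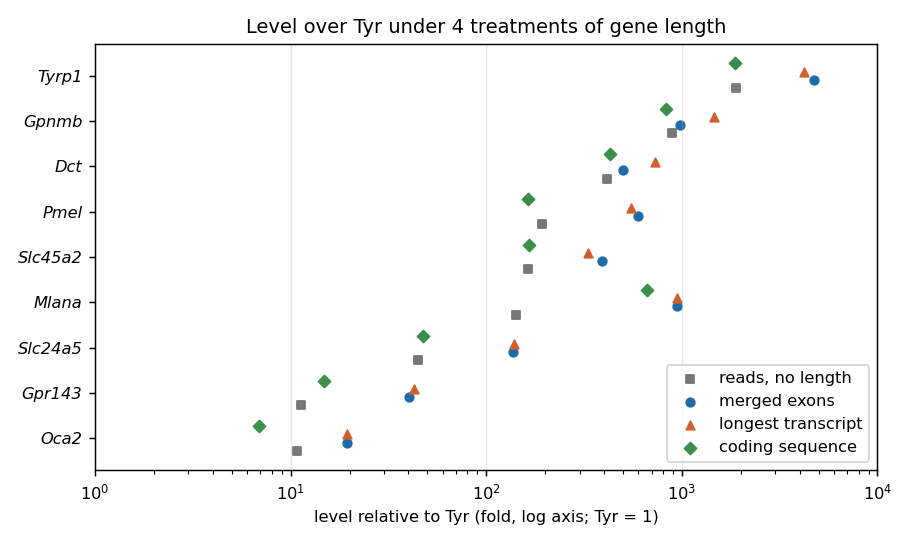
Mean level of 9 members relative to Tyr (fold, horizontal log axis), in plain reads and per kilobase of merged exon, of the longest transcript and of coding sequence. The treatments move a gene by up to several fold, and no point comes below 6.93-fold, the value of Oca2 per kilobase of coding sequence.

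The structural proteins of the melanosome all stood well above the median of the table. Gpnmb (ENSMUSG00000029816.10, chromosome 6, 49036546 to 49070929, plus strand), a glycoprotein related to Pmel that is found in melanosomes and in lysosomes of other cells, had 5770.3, 6042 and 5677 CPM, a mean of 5830 ± 189.5 CPM (n = 3). Pmel (ENSMUSG00000025359.10, chromosome 10, 128704195 to 128720238, plus strand) had 1202, 1331 and 1239.5 CPM, a mean of 1258 ± 66.6 CPM. Mlana (ENSMUSG00000024806.4, chromosome 19, 29697824 to 29708634, plus strand) had 900.0, 936 and 923 CPM, a mean of 919.6 ± 18.1 CPM. All 3 were highest in replicate 2, and Gpnmb was the one member lowest in replicate 3.

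Per kilobase the order changed. Mlana, whose 1057 bases of exon are the fewest of the set, rose to 870.0 ± 17.1 RPKM, and its libraries overlapped those of Gpnmb at 895 ± 29.1 RPKM, so these genes overlapped on that scale. The overlap depended on the length used: per kilobase of the longest transcript Gpnmb had 1534 to 1633 RPKM against 993 to 1033 RPKM for Mlana, and per kilobase of coding sequence 3297 to 3509 against 2655 to 2760 RPKM. Pmel lay lower at 549 ± 29.1 RPKM. Within libraries, Gpnmb exceeded Pmel by 1.63 ± 0.0497-fold per kilobase and by 4.64 ± 0.141-fold in reads. The translated products of the pair shared 36.6% of aligned residues and their transcripts no word of 31 bases. Exons of Pmel overlap those of Dgka (105 bases) and Cdk2 (34 bases) on the opposite strand, and the strand setting of the counting is not given in the sources used here. This overlap is 4.58% and 1.48% of the Pmel exon length, and Dgka stood at 0.708 ± 0.219 CPM and Cdk2 at 164 ± 3.83 CPM. The deposited values of Pmel, Dgka and Cdk2 were whole numbers in every library. How the reads of the overlap were divided was not tested.

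Gpnmb is also made by macrophages, so their markers were read beside it. Of 7 macrophage markers with a row, Adgre1, Csf1r, Tyrobp and Aif1 had no counts. Mrc1 had 1 read and Cd14 had 4, both below 1 CPM, and Lyz2 was unresolved at 0.602 ± 0.160 CPM. The summed level of the list was 0.636 to 0.855 CPM per library, against 5677 to 6042 CPM of Gpnmb. The part of macrophage RNA in the Gpnmb level was not tested.

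Transporters and the receptor formed the lower end of the set above Tyr. Slc45a2 (ENSMUSG00000022243.10, chromosome 15, 11000721 to 11029233, plus strand) was the exception at 1033, 1094 and 1084 CPM, a mean of 1070.3 ± 32.4 CPM (n = 3). Slc24a5 (ENSMUSG00000035183.14, chromosome 2, 125068124 to 125088677, plus strand), a potassium-dependent sodium-calcium exchanger, had 279, 312 and 285 CPM, a mean of 292 ± 17.2 CPM. Replicate 2 stood above the other libraries for Slc24a5, and replicate 1 below them for Slc45a2. Gpr143 (ENSMUSG00000025333.10, chromosome X, 152781921 to 152808646, plus strand) had 71.2, 74.1 and 74.9 CPM, a mean of 73.4 ± 1.96 CPM. Oca2 (ENSMUSG00000030450.11, chromosome 7, 56239760 to 56536518, plus strand) had 69.8, 70.0 and 72.0 CPM, a mean of 70.6 ± 1.25 CPM. Gpr143 and Oca2 overlapped in CPM, the only neighbours in that order that did, with 8 of 9 neighbouring pairs apart.

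Per kilobase, Slc45a2 reached 359 ± 10.9 RPKM, Slc24a5 125 ± 7.40 RPKM, Gpr143 36.8 ± 0.984 RPKM and Oca2 17.8 ± 0.315 RPKM. On this scale Gpr143 exceeded Oca2 by 2.06 ± 0.0389-fold, and 8 of 9 neighbours were again apart, Gpnmb and Mlana being the pair that overlapped. Slc45a2 exceeded Oca2 by 20.1 ± 0.563-fold and Slc24a5 by 2.87 ± 0.115-fold. With the longest transcript as length Dct moved above Pmel, and with coding length Dct moved above Pmel and Slc45a2 drew level with Pmel, their libraries overlapping. The other places in the order were the same under all 3 lengths.

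Slc24a5 needs a reservation of its own. Exons of Myef2, a gene on the opposite strand, cover 921 of its 2330 exon bases (39.5%), and 936 of its 2326 words of 31 bases (40.2%) occur in other genes, the largest share of the set. Its deposited values were fractional at 2613.02, 2940.42 and 2689.9, and Tyr is the only other member with fractional values. Myef2 stood at 161 ± 4.13 CPM, and its deposited values were fractional too, at 1524.98, 1549.58 and 1476.1. In each library the deposited values of Slc24a5 and Myef2 add to a whole number. By what rule the reads of the overlap were divided between the pair was not tested, so the Slc24a5 level is uncertain. Mlana, Slc45a2 and Gpr143 shared no words with any other gene and the remaining members at most 3.54%.

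Features of the encoded proteins varied within each group of the set. Translated from GENCODE coding sequences, sequons for N-linked glycans (asparagine, any residue but proline, then serine or threonine) numbered 11 in Gpnmb, 7 each in Tyrp1, Dct and Oca2, 6 in Tyr, 4 in Pmel, 3 each in Slc24a5 and Gpr143, 1 in Slc45a2 and 0 in Mlana. A sequon is a possible site, not a measured glycan. Acidic dileucine words, the type of signal that sorts membrane proteins to melanosomes and lysosomes (an acidic residue, any 3 residues, leucine, then leucine or isoleucine), occurred in the last 40 residues of Tyr (2 words), Pmel (1) and Gpnmb (1). No match in the other tails says only that these letters are not there. Over the whole protein the words numbered 5 each in Tyr and Oca2 and 2 each in Pmel, Gpnmb and Slc24a5. Dct and Slc45a2 had 1 each, and Tyrp1, Mlana and Gpr143 had 0. Which of these words can act in sorting was not tested. Oca2 is the widest gene at 296.8 kb with 24 exons in its coding transcript, and Mlana the narrowest at 10.8 kb with 5.

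Small differences between the 3 libraries exceeded counting error for several members. By a Poisson deviance test with Benjamini-Hochberg adjustment, 6 of 10 members varied, beside 3.31% of the 11000 genes tested. They were Tyrp1 (adjusted p = 4.02e-50), Gpnmb (8.39e-23), Pmel (2.19e-12), Slc24a5 (0.00475), Slc45a2 (0.00568) and Dct (0.0171). The sizes were modest, since the highest library exceeded the lowest by 1.12-fold for Slc24a5, 1.11-fold for Pmel, 1.06-fold each for Gpnmb, Tyrp1 and Slc45a2 and 1.04-fold for Dct. Mlana did not pass at 1.04-fold (adjusted p = 0.285), nor did Gpr143 at 1.05-fold (0.848) or Oca2 at 1.03-fold (0.929). Tyr had the widest ratio, 1.29-fold, and did not pass (0.724), since counting error alone gives it a coefficient of variation of 12.8%, against 12.9% measured.

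Deeply counted genes pass this test more easily. Among the 895 genes averaging 2000 counts or more, a bound set after the data were seen, 17.9% varied, and 6 of the 7 members at that depth did. The coefficients of variation of these 7 ran from 1.76% for Dct to 5.90% for Slc24a5, against a median of 2.43% for those 895 genes. All 7 were highest in replicate 2, where 38.9% of the 895 genes were highest, and 6 of the 7 were lowest in replicate 1, where 43.5% were lowest. All 10 members were below their own mean in replicate 1, as were 51.1% of the 11000 genes. The members come from the same 3 libraries and are not independent of each other, so these shares carry no test. The calls depended on single libraries. Without replicate 1 only Gpnmb and Pmel varied, and without replicate 2 only Tyrp1 and Slc45a2 did, so 2 of 10 passed in each case, while without replicate 3 all 6 passed. Myef2, whose exons overlap those of Slc24a5, did not pass the same test over all libraries (adjusted p = 0.724). With library totals in place of TMM factors Dct did not pass (adjusted p = 0.088).

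**Figure D4:**
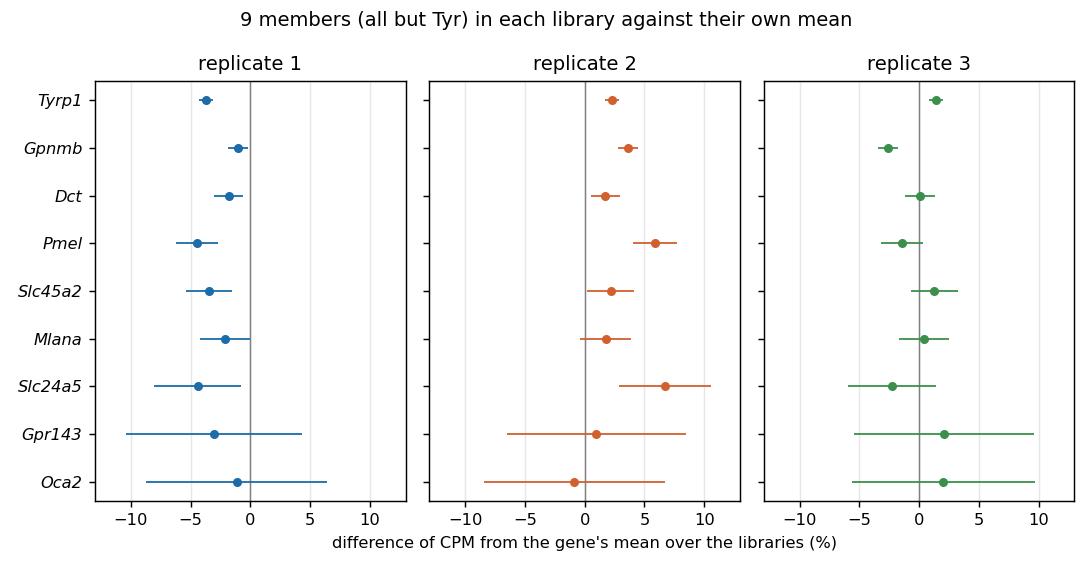
Difference of each gene's CPM from its own mean over the libraries, in percent, for 9 members in each Mock replicate, with bars for the 95% counting error (normal approximation). In replicate 1 all points lie left of 0, in replicate 2 Slc24a5 (6.71%) and Pmel (5.87%) lie farthest right, and Tyr is left out because its bars are far wider.

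The other genes of the pathway were read from 5 lists, whose counts stand beside the table's own shares of 74.3% above and 20.2% below 1 CPM and 3.31% varying. Of 13 regulators and receptors of pigment cells with a row, 10 were above 1 CPM by edgeR, 1 below and 2 without counts, with a median of 37.4 CPM. Sox10, a neural crest factor, led at 510.0 ± 36.7 CPM, followed by Pax3 at 164 ± 2.32 CPM and Mitf at 135 ± 6.80 CPM. Sox10 had 499, 551 and 479.7 CPM, highest in replicate 2 like Pmel, and it was the one gene of the list that varied between libraries (Poisson deviance adjusted p = 6.18e-09). Mitf, with 127, 137 and 140.4 CPM, did not pass (0.299). Kit, a receptor of the melanocyte lineage, was under 1 CPM at 6 reads in total. The endothelin receptor gene Ednrb and the Wnt pathway factor Lef1 were without counts, and the limit for each at this depth was 0.106 CPM. Asip was not analysed here.

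Of 12 genes for melanosomal ions, metals and cystine, 11 were above 1 CPM and none below, with a median of 68.9 CPM. The proton pump subunit gene Atp6v0a1 reached 329 ± 6.32 CPM, the copper importer gene Slc31a1 268 ± 8.36 CPM and the channel gene Trpm1 176 ± 3.85 CPM. Tpcn2 (18.6 ± 2.43 CPM) and Slc39a10 (19.6 ± 1.55 CPM) were the lowest with reads, and Slc24a4, a relative of Slc24a5, had no counts. Of 10 genes for Pmel processing and the melanosome matrix, 9 were above 1 CPM, with a median of 133 CPM. The protease gene Ctsd reached 2692 ± 70.2 CPM, the tetraspanin gene Cd63 622 ± 24.2 CPM and Apoe 432 ± 19.9 CPM, and all 3 varied between libraries. Bace2, whose protease cuts Pmel, stood at 37.2 ± 2.80 CPM, Furin at 54.1 ± 1.27 CPM, and Mia had no counts.

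All 25 genes for delivery of cargo to melanosomes were above 1 CPM, with a median of 49.4 CPM and 0 varying. Rab38, a GTPase that directs Tyr and Tyrp1 proteins to melanosomes, led at 455 ± 2.67 CPM, followed by Ap3d1 at 206 ± 2.76 CPM and Mlph at 204 ± 6.02 CPM. The lowest were Bloc1s3 at 13.5 ± 1.51 CPM, Bloc1s5 at 14.1 ± 0.505 CPM and Hps6 at 19.4 ± 1.89 CPM. Each of these was above Tyr in CPM. Of 6 other enzymes that act on dopachrome, dopa or quinones, 4 were above 1 CPM and Nqo1 was unresolved at 0.603 ± 0.270 CPM. Gstp1 reached 1122 ± 31.5 CPM and Mif, whose protein has a dopachrome tautomerase activity of its own, 666 ± 3.53 CPM; both have near-identical copies in the mouse genome, so their levels are uncertain. Ddt stood at 31.1 ± 0.489 CPM, and Th, the tyrosine hydroxylase gene of neurons, had no counts.

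Markers of other cells that make some of the same genes were measured in the same way. Retinal pigment epithelium also expresses Tyr family genes and Pmel. Of its 6 markers with a row, Rpe65 and Best1 had 2 reads each and Lrat and Ttr 1 each, all below 1 CPM, while Rlbp1 (46.1 ± 2.19 CPM) and Rdh5 (7.41 ± 1.63 CPM) were above. Of 6 markers of Schwann cells, which like melanocytes come from the neural crest, 5 were above 1 CPM, as were 74.3% of all genes tested. Pmp22 was among them at 36.6 ± 2.55 CPM. Keratinocyte markers summed to at most 0.212 CPM and endothelial markers to 0.107 CPM, with Krt14, Cdh5, Kdr, Tie1 and Emcn at 0. Fibroblast markers summed to 32.6 to 38.1 CPM, of which Col1a2 and Col1a1 made up nearly all, with Dcn and Col3a1 at 0. Their part in the members' levels was not tested.

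**Figure D5:**
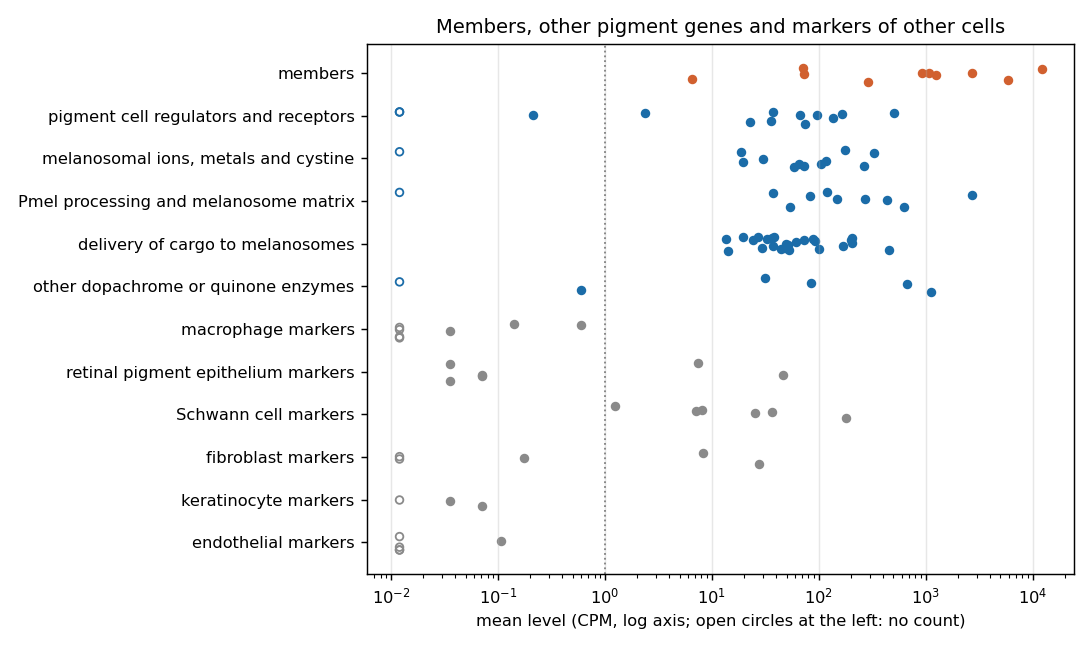
Mean CPM (horizontal log axis, dotted line at 1 CPM) of the 10 members, of the genes in 5 other pigment lists and of markers of 6 other cell types, 1 point per gene, with open circles for genes without counts. Most pigment genes lie right of the line, Tyr is the lowest member at 6.52 CPM, and macrophage, keratinocyte and endothelial markers lie left of the line.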

How the data were processed

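RNA of 3 B16 Mock samples was extracted with a NucleoSpin kit and made into libraries by BGI, per the labels' protocols, which also speak of organs although the samples are cells. The authors deposited estimated counts per gene symbol, 1 column per sample, and 2270 of 17285 rows (13.1%) hold fractional values (more than 0.005 from a whole number). Aligner, counter, annotation and strand setting were not given in the sources used here, and the submitters' processing notes name the build GRCm38.p6.

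The estimated counts were rounded to whole numbers, giving 9328087, 9456501 and 9438894 per library, and scaled by TMM factors (edgeR 4.0.16, R 4.3.3). The 14408 genes with at least 1 count were tested against 1 CPM with an F statistic built on edgeR's quasi-likelihood fit. Where the variance factor of that fit was below 1, a Poisson likelihood ratio test was also run. The larger of the 2 p-values was then kept. The quasi-likelihood p-values rest on a spread pooled over genes. Ratios to Tyr were tested with limma 3.58.1 on log2((count + 0.5) per kilobase) within each library, with exon lengths from the GENCODE M21 annotation of GRCm38; its p-values rest on a spread pooled over genes and are not printed, since an exact paired permutation test over 3 libraries cannot go below 0.25. Variation between libraries was tested by Poisson deviance (2 degrees of freedom) over genes averaging 10 counts or more. Adjusted p-values are Benjamini-Hochberg over all genes tested, with a threshold of 0.05. DESeq2 1.42.0 served as an alternative. Proteins were translated from GENCODE and aligned with Biopython 1.88 (BLOSUM62, gap penalties 11 and 1), and promoter windows came from RefSeq. The level and ratio tests were also run on simulated data with a preset spread, and the variation test on counting error plus set shifts. Those runs do not show how the tests behave under other spreads.

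All 10 members were named, and of every other list the 3 highest genes and up to 3 lowest by mean CPM. Some genes of these lists are not reported here. The members and lists were chosen with earlier results of these data known. With 1 group, no condition was compared. A gene with no count in any library can have a level of up to 0.106 CPM, the limit of 3 counts over the group.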

Additional observations from a re-analysis of the deposited data

How the results depend on the processing

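No pairing of samples between groups was possible because the series has 1 group. Only the ratios to Tyr were paired, within each library. All 10 members stayed above 1 CPM under every alternative (DESeq2, other scaling, rounding down, a count minimum, each library left out, 2 CPM), except that at a reference of 10 CPM the count was 9 and Tyr turned, to a log2 level of -0.62. All 9 others stayed above Tyr under the 11 alternatives, which include a coding length chosen after seeing the data. Scaling cannot change a ratio within a library. The number of members varying between libraries was 6 and ranged from 2 to 6 with a library left out. Without replicate 1, Tyrp1, Dct, Slc24a5 and Slc45a2 did not pass, and without replicate 2, Dct, Gpnmb, Pmel and Slc24a5 did not. With library totals it was 5. The cause was not tested. The members' share was 2.46% of counts and 2.73% per kilobase of exon, where the unit itself differs. Of the results for single genes, 279 kept their direction and their side of the threshold, 9 no longer passed and 1 reversed. All 9 that no longer passed were calls of variation between libraries. In that family 81 results were kept, which include members that did not pass in the main fit. Keeping the call does not mean keeping the value, since without a correction for length the log2 ratio to Tyr moved from 9.89 to 7.14 for Mlana, from 9.22 to 7.59 for Pmel and from 5.32 to 3.49 for Gpr143. Depth limits Tyr most, with 184 reads.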
